A study of Mus musculus with 4 samples.

Results

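The nuclear-encoded subunits of oxidative phosphorylation (OXPHOS) were followed over 4 arrays of bone marrow-derived macrophages (BMDMs). Members were the genes on the array whose symbols began with Ndufa, Ndufb, Ndufc, Ndufs, Ndufv, Uqcr, Cox4i, Cox5, Cox6, Cox7, Cox8 or Atp5, together with Sdha, Sdhb, Sdhc and Sdhd, leaving out pseudogenes and the Ndufaf assembly factors. This gave 85 of the 23184 named genes, measured by 120 probes, with 38 members in complex I, 4 in complex II, 8 in complex III, 18 in complex IV and 17 in complex V. Each member was read by its brightest probe. Complexes were assigned by gene name, so Ndufa4, later placed in complex IV, and the similar Ndufa4l2 were counted in complex I. The symbols follow the annotation of the array, and 2 of them, Atp5s and Atp5sl, belong to proteins that are not subunits of the ATP synthase despite their names.

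OXPHOS is the final stage of respiration in the inner mitochondrial membrane. Complexes I and II pass electrons from NADH and succinate to coenzyme Q, complex III passes them on to cytochrome c, complex IV hands them to oxygen, and complex V, the ATP synthase, uses the resulting proton gradient to make ATP. Most subunits are encoded in the nucleus and imported, while a small set of central subunits is encoded by the mitochondrial genome. IL-4-activated macrophages are known for respiration and fatty-acid oxidation, and macrophages activated with LPS and IFN-γ for glycolysis.

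The series holds 1 array for each of 4 conditions, all from C57BL/6J mice of 10 weeks, whose bone marrow was cultured with L929 supernatant for 6 days and then stimulated for 2 days. The M2 array holds wild-type cells given IL-4 (50 ng per ml), and the M1 array holds wild-type cells given IFN-γ (20 ng per ml) and LPS (100 ng per ml) together. The same dose of IL-4 was given to cells of the genotype p18 (2400001E08Rik) -/-, called Lamtor1-deficient here, and to wild-type cells that also received Torin1, an inhibitor of the kinase mTOR, at 250 nM. The study's methods describe the deletion as a floxed Lamtor1 allele cut by LysM-Cre, which acts in myeloid cells, with floxed mice lacking Cre as wild type. Lamtor1 anchors on the lysosome a complex that mTORC1 needs for its response to amino acids, so its loss and Torin1 reach mTOR by different routes.

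All values below are a level, which is the log2 of a probe's signal over the 75th percentile of its array, or a log2 ratio, which is the difference of a level from that on the wild-type M2 array. Every comparison shares this M2 array. With 1 array per condition there was no replicate, no test and no p-value, and a member was called only when it was at least 2-fold higher or lower. The spread between repeated spots of one probe gave a technical SD of a log2 ratio of 0.088 for Lamtor1 loss, 0.093 for Torin1 and 0.0997 for M1, which leaves out any difference between cultures or mice. In RNA from bulk cultures, fewer cells of one kind and less RNA per cell cannot be told apart.

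The targeted gene was low on the array labelled Lamtor1-deficient. The level of 2400001E08Rik, which encodes Lamtor1, was 6.05 on the M2 array, 0.64 on the Lamtor1-deficient array, 6.23 with Torin1 and 5.68 on the M1 array. Mrc1, the mannose receptor of M2 cells, had levels of 6.98 on M2, 5.56 without Lamtor1, 4.34 with Torin1 and -1.20 on M1, and Nos2, the inducible nitric oxide synthase of M1 cells, had -1.40, 4.22, 4.04 and 9.18 in the same order. In these 2 genes the Lamtor1-deficient and Torin1 arrays, both labelled as M2 cells, lay between M2 and M1. Other markers did not share that order. Chi3l3, a chitinase-like protein of M2 cells, was at 8.93, 9.15, 9.15 and -3.32, and Retnla, another M2 marker, was at 9.39 on M2 and 7.22 without Lamtor1 and not well above background with Torin1 and on M1. Il12b was well above background on no array. All 7 macrophage markers were well above background on every array, with a summed signal of 690 times the 75th percentile on M2, 468 without Lamtor1, 543 with Torin1 and 404 on M1. Without Lamtor1, 5 of the 7 were lower, with log2 ratios of -4.96 for Fcgr1, -2.57 for Emr1, -1.86 for Cd14, -0.81 for Itgam and -0.44 for Csf1r. With Torin1, 3 were lower, namely Fcgr1 (-4.61), Emr1 (-2.81) and Csf1r (-0.27), and in M1 Csf1r (-1.24), Emr1 (-1.04) and Itgam (-0.34). The 75th percentile of the signal was 287 on the M1 array, 595 on M2, 536 on the Lamtor1-deficient and 470 on the Torin1 array, so the M1 array was the dimmest.

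Of the 85 members, 82 were well above background on all 4 arrays. The other 3, Cox7b2, Cox8b and Cox8c, were well above background on none, and no ratio is given for them. By their medians, Lamtor1 loss and Torin1 stood on opposite sides of the M2 level. The median log2 ratio over the 82 members was 0.29 after Lamtor1 loss, -0.63 with Torin1 and -0.18 in M1. Over all named genes well above background on both arrays the medians were 0.09, 0.02 and 0.08. Set directly against each other, the Lamtor1-deficient array was higher than the Torin1 array for 76 of 82 members, against 55% of named genes well above background on both, namely for 37 of 38 in complex I, 4 of 4 in complex II, 7 of 8 in complex III, 12 of 15 in complex IV and 16 of 17 in complex V. The 6 exceptions were Ndufa6, Cox7a2l, Cox4i2, Uqcrh, Atp5g2 and Cox8a.

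**Figure D1:**
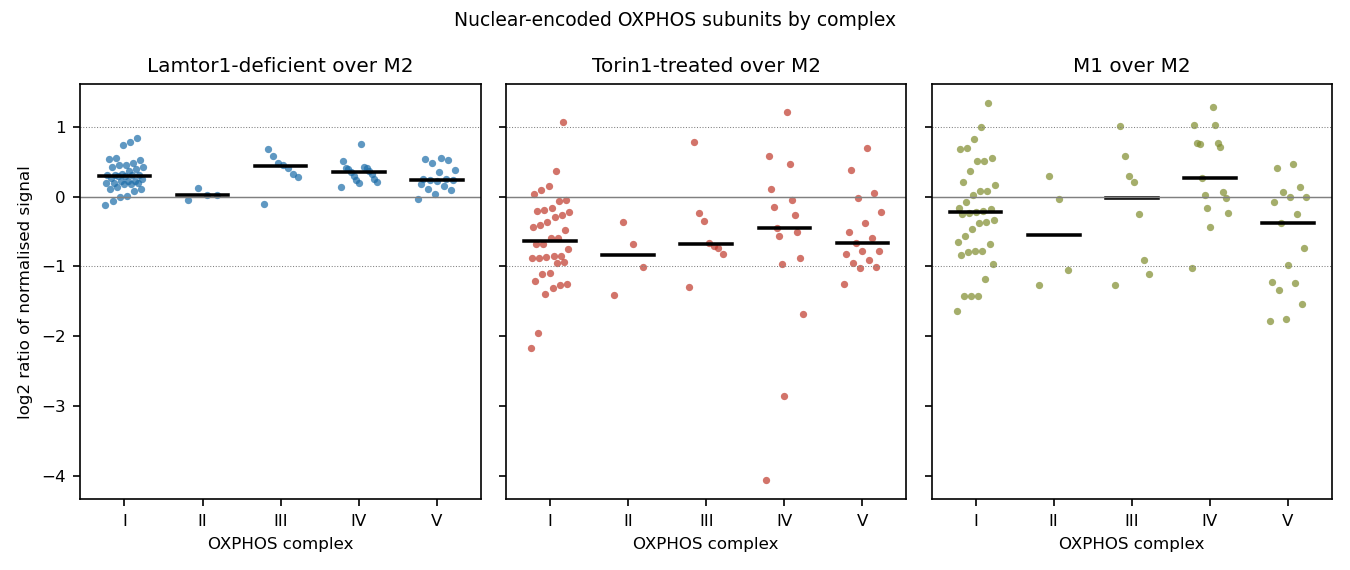
Log2 ratio of the normalised signal over the wild-type M2 array for the 82 members well above background on all arrays, by complex, with 1 panel per comparison. Each point is 1 gene, black bars are medians, and dotted lines mark 2-fold. Points of the left panel reach no higher than 0.84, whereas those of the Torin1 panel reach from -4.07 to 1.21.

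Loss of Lamtor1 was accompanied by slightly higher signals of almost the whole set, and by no change of 2-fold. The size depended on the scaling, since the median of 0.29 over the 82 members was 0.13 with quantile normalization, and its excess over the median of named genes well above background went from 0.21 to 0.10. Of 82 members, 77 were higher and 5 were lower, against 57.3% of all named genes well above background being higher at any size. Most members are bright, and bright genes as a whole were also higher. Among the 2712 named genes with a mean level of 4 or more, which include 70 of the members, the median log2 ratio was 0.20 and 1888 were higher. No member was 2-fold lower or 2-fold higher, while 7.75% and 7.8% of named genes well above background were. At 1.5-fold, 6 members were higher, against 16.9% of these genes. Of the 82 ratios, 63 exceeded 2 technical SD (0.176), all of them upward. Named genes well above background had a 30th percentile of -0.180 and a 58th percentile of 0.175. Most of these genes thus also lay beyond about that limit, in both directions.

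The members highest after Lamtor1 loss were small accessory subunits. Ndufb11, a membrane-arm subunit of complex I, had levels of 6.42 on M2, 7.26 without Lamtor1, 6.78 with Torin1 and 5.85 on M1, and its log2 ratio after Lamtor1 loss was 0.84. The gene has 3 probes, and the lowest of their ratios was 0.30, so the size depends on the probe. Ndufa1, another small membrane subunit of complex I, read 6.53 on M2, 7.31 without Lamtor1, 5.27 with Torin1 and 6.29 on M1, with ratios of 0.78 for Lamtor1 loss and -1.26 for Torin1.
Cox7a2, the common form of a small complex IV subunit, had ratios of 0.76 without Lamtor1 and -0.26 with Torin1. Ndufs5 of complex I followed with 0.74, Uqcrq of complex III with 0.68 and Uqcrb of complex III with 0.59. These 6 genes are the ones past 1.5-fold. Atp5l, a membrane subunit of the ATP synthase, was the highest of complex V with 0.55, and its 6 probes read between 0.49 and 0.58. Uqcrc1 (-0.10), Ndufa9 (-0.06), Sdhc (-0.05) and Atp5o (-0.03) were slightly below the M2 level, and all 5 members below it lay within 2 technical SD of 0. By complex, the median was 0.43 in complex III, 0.35 in complex IV, 0.30 in complex I, 0.24 in complex V and 0.02 in complex II.

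By their brightest probes, all 4 complex II genes lay within 2 technical SD of the M2 level after Lamtor1 loss, although the second probe of Sdhb read -0.34. Complex II is the succinate dehydrogenase, which also belongs to the citric acid cycle, and all of its subunits are nuclear. Sdha, the flavoprotein that oxidizes succinate, had levels of 5.86 on M2, 5.98 without Lamtor1, 5.51 with Torin1 and 4.59 on M1. The iron-sulphur subunit Sdhb had 7.10, 7.12, 6.10 and 7.07 in that order, the membrane anchor Sdhc had 5.29, 5.24, 3.88 and 4.23, and the other anchor Sdhd had 6.48, 6.51, 5.80 and 6.78. The log2 ratios after Lamtor1 loss were 0.12, 0.02, -0.05 and 0.03, and the sign of their median depended on the scaling of the arrays (-0.16 to 0.09 over the alternatives). With Torin1 all 4 were lower, by ratios of -0.36 for Sdha, -1.01 for Sdhb, -1.41 for Sdhc and -0.68 for Sdhd. In M1, Sdha (-1.27) and Sdhc (-1.06) were more than 2-fold lower, Sdhb was at -0.03 (-0.55 by its second probe) and Sdhd at 0.30. With the arrays centred on their medians all 4 were lower in M1, from -2.10 for Sdha to -0.52 for Sdhd.

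With Torin1, 69 of the 82 members were lower and 13 were higher, against 49.2% of named genes well above background being lower at any size. A fall of 2-fold or more was seen for 18 members, against 13.2% of named genes well above background, and of 1.5-fold or more for 44 members, against 23.3%. A rise of 2-fold or more was seen for 2 members, against 11.9%. Centring each array on its median raised the count of members 2-fold lower, over all 85, from 18 to 34, and taking the 75th percentile over detected probes gave 15. All complexes took part, with medians of -0.84 in complex II, -0.69 in complex III, -0.67 in complex V, -0.64 in complex I and -0.45 in complex IV. Beyond 2 technical SD (0.186), 63 members were lower and 8 higher. Named genes well above background had a 39th percentile of -0.199 and a 59th percentile of 0.185, so most of these also lay beyond about that limit, in both directions.

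**Figure D2:**
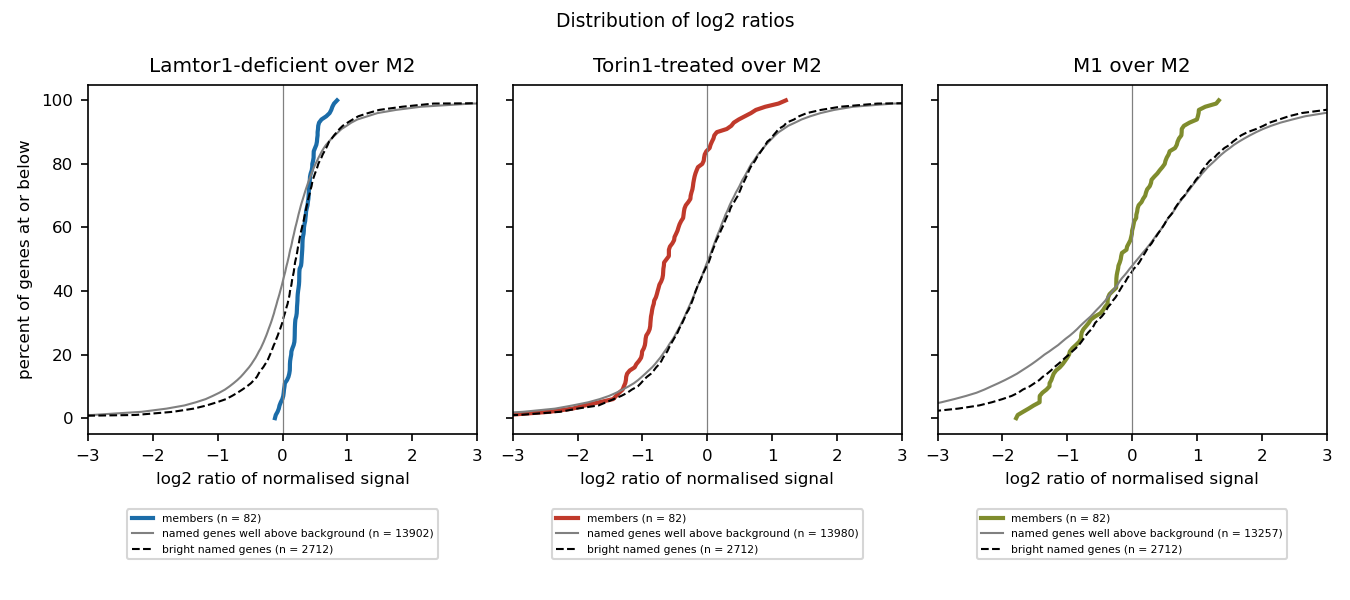
Cumulative percentage of genes against the log2 ratio over the wild-type M2 array in the 3 comparisons, for the members (coloured), named genes well above background on both arrays (grey) and named genes with a mean level of 4 or more (dashed). The axis is cut at -3 and 3, which leaves Cox6a2 out of the Torin1 panel. The members' curve lies to the left of both others in the Torin1 panel at the median (-0.63 against 0.02 and 0.04), and close to the dashed curve in the Lamtor1 panel (0.29 against 0.20).

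The lowest ratios with Torin1 belonged to 2 heart- and muscle-type isoforms of complex IV. Cox6a2, the striated-muscle form of subunit VIa, had levels of 0.27 on M2, 0.68 without Lamtor1, -3.79 with Torin1 and 0.26 on M1. Its signal was 16.8-fold lower with Torin1 (log2 ratio -4.07), and its 1 probe lies at chr7:135349160-135349219 of mm9. The signal with Torin1 was 33.9, near the lowest signal well above background on that array (15.7), so the size of this fold is uncertain. Cox7a1, the muscle form of subunit VIIa, had levels of 2.13, 2.33, -0.73 and 3.17 in the same order, and was 7.28-fold lower with Torin1 (log2 ratio -2.86). Both genes were thus low on the Torin1 array alone. Cox5a, a nuclear subunit of the matrix side of complex IV, had 7.90 on M2, 8.15 without Lamtor1, 6.22 with Torin1 and 7.96 on M1, and was 3.21-fold lower with Torin1.

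Several complex I members were lower with Torin1 by more than 2-fold. Ndufs8, a core iron-sulphur subunit of the electron path to coenzyme Q, had levels of 3.67 on M2, 3.93 without Lamtor1 and 3.34 on M1, and with Torin1 its signal was 4.51-fold lower than on M2 (log2 ratio -2.17). Ndufab1, the mitochondrial acyl carrier protein that is also a complex I subunit, had 1.86, 1.94, -0.09 and 0.23, and was low on the Torin1 array and on the M1 array. Ndufa11, an accessory membrane subunit, had a Torin1 ratio of -1.31, Ndufv3 of the NADH-oxidizing module -1.25 (-0.81 by its second probe), Ndufc1 -1.21 and Ndufb8, a membrane-arm subunit, -1.12. Ndufv2, the iron-sulphur partner of Ndufv1 at the NADH site, was at -1.09, whereas Ndufv1 itself, which binds NADH, was at 0.15. Core subunits therefore differed among themselves, from -2.17 for Ndufs8 to 0.15 for Ndufv1, with a median of -0.59 over 7 core genes and -0.68 over 31 accessory genes.

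With Torin1, 7 of 8 members of complex III and 14 of 17 of complex V were lower, against 49.2% of named genes well above background. Uqcrq, a small subunit of complex III, had levels of 6.92 on M2, 7.60 without Lamtor1, 5.63 with Torin1 and 7.93 on M1, and its ratio of -1.29 was the lowest of complex III. The core proteins Uqcrc1 (-0.74) and Uqcrc2 (-0.23) and the Rieske iron-sulphur protein Uqcrfs1 (-0.34) were less than 2-fold lower, and Uqcrh (0.79), the hinge protein, was the 1 member of complex III higher. In the ATP synthase, Atp5g1 (-1.25) passed 2-fold. Atp5g3 (-1.01) and the epsilon subunit Atp5e (-1.03) lay at that threshold, and were at -0.93 and -0.94 when the 75th percentile was taken over detected probes. Atp5g1, Atp5g2 and Atp5g3 encode the same mature c subunit of the proton-driven ring, and Atp5g2 went the other way, with levels of 8.13 on M2, 8.67 without Lamtor1, 8.83 with Torin1 and 8.60 on M1 (Torin1 ratio 0.70). Near-identical sequences of such gene copies, and of processed pseudogenes, can add to the signal of a probe.

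The 2 members more than 2-fold higher with Torin1 were Cox7a2l and Ndufa6. Cox7a2l, a complex IV-related protein that joins complexes III and IV into supercomplexes, had levels of 7.35 on M2, 7.86 without Lamtor1, 8.56 with Torin1 and 7.38 on M1, a log2 ratio of 1.21. Ndufa6, an accessory complex I subunit, had 5.13, 5.31, 6.20 and 5.64, a log2 ratio of 1.07. Both were highest on the Torin1 array. The hinge protein Uqcrh of complex III came next with 0.79, and Cox8a, a small subunit of complex IV, was at 0.47. A shift of the arrays to their medians, which lowers every Torin1 ratio by 0.25, took both below 2-fold and left 8 of 82 members higher.

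**Figure D3:**
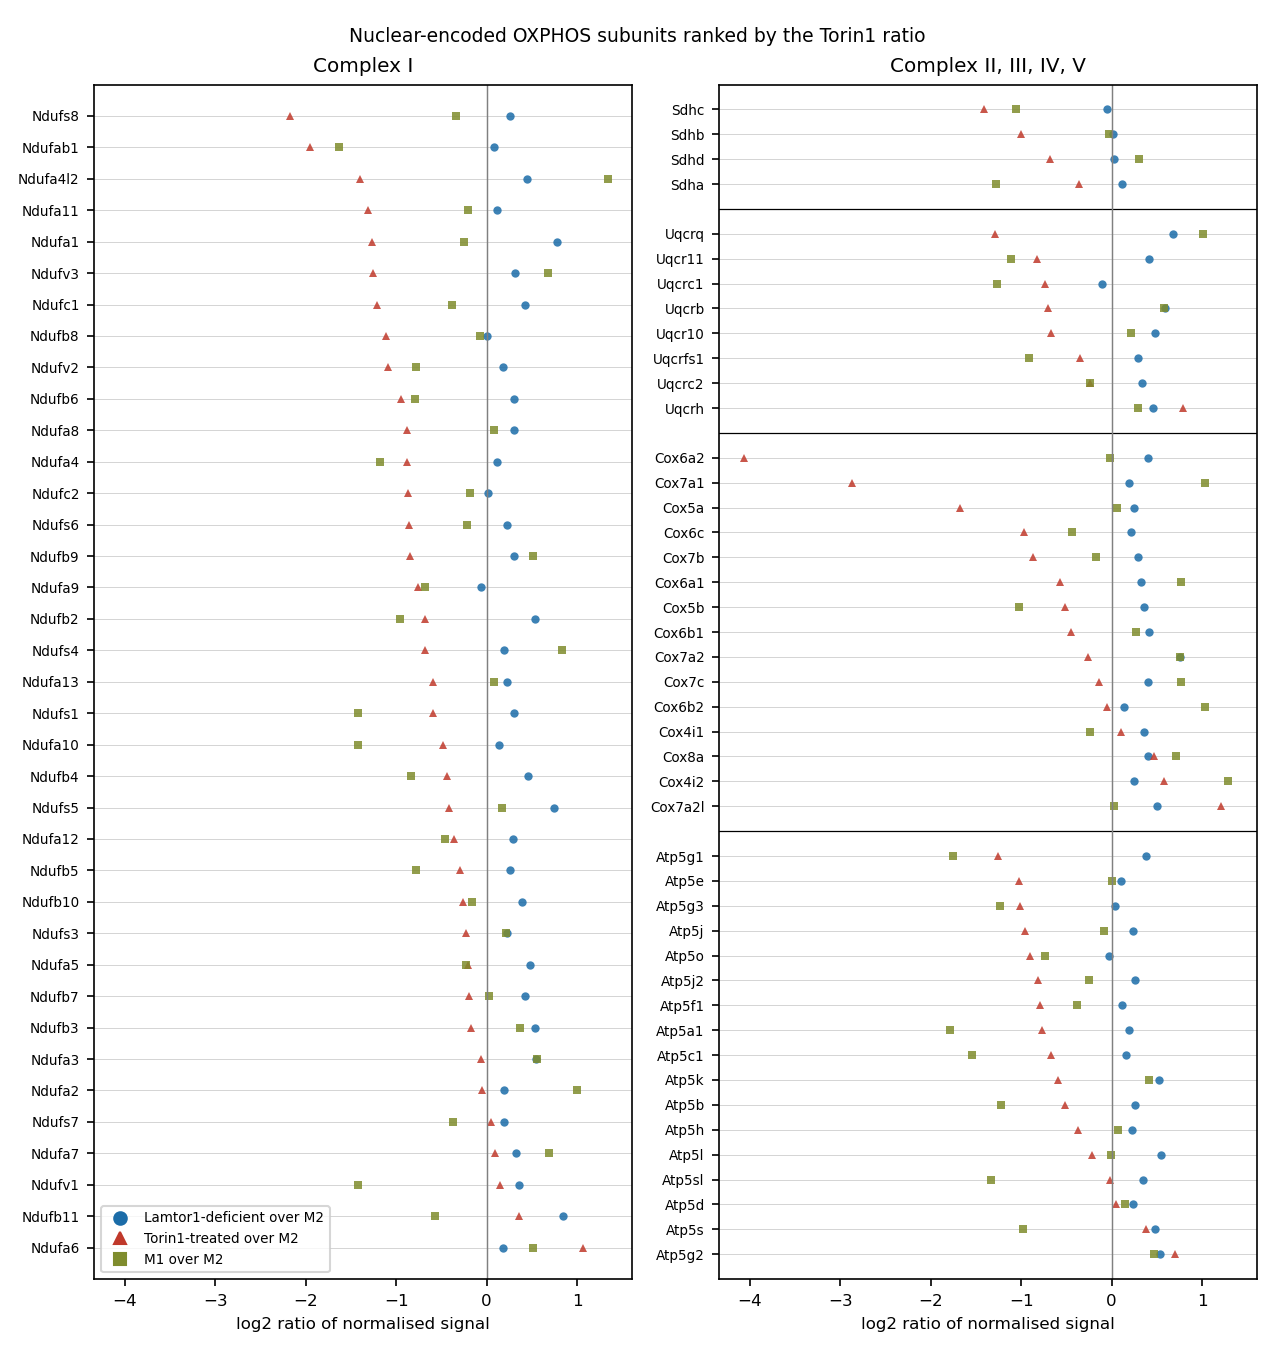
Log2 ratios over the wild-type M2 array of 81 of the 82 members, complex I on the left and complexes II to V from top to bottom on the right, ordered within each complex by the Torin1 ratio. Circles stand for Lamtor1 loss, triangles for Torin1 and squares for M1. Circles lie to the right of triangles for 75 of the 81 genes drawn, and squares spread on both sides.

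Promoter sequences are shown for the ends of the Torin1 range, to let the regions of the lowest and the highest members be read side by side. A window of 250 bases before to 50 bases after the start was given by RefSeq (GRCm38.p6) for 70 of the 85 members, among them 4 of the 5 lowest in Torin1 and the 2 highest. The 150 bases before the start follow 5′ to 3′ on the strand of the gene, and capitals mark a match to a motif named below. Cox7a1 is at chr7:30184021-30184170 (plus strand), Ndufs8 at chr19:3912775-3912924 (minus), Ndufab1 at chr7:122101849-122101998 (minus), Cox5a at chr9:57521082-57521231 (plus), Cox7a2l at chr17:83514334-83514483 (minus) and Ndufa6 at chr15:82354292-82354441 (minus).
Cox7a1: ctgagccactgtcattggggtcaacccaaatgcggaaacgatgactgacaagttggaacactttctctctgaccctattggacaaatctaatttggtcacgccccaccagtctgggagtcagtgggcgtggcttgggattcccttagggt
Ndufs8: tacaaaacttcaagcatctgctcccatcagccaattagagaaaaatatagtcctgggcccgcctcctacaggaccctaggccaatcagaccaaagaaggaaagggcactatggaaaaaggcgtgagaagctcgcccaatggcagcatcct
Ndufab1: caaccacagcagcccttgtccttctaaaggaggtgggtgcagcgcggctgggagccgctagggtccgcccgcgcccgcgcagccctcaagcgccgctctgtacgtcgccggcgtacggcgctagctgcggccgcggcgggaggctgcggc
Cox5a: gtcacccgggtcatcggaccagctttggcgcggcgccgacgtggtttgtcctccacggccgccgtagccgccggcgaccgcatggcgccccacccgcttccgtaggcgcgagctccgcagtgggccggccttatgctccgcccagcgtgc
Cox7a2l: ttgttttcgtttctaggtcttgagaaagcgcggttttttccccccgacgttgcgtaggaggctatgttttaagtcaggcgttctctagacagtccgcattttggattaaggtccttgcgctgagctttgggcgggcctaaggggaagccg
Ndufa6: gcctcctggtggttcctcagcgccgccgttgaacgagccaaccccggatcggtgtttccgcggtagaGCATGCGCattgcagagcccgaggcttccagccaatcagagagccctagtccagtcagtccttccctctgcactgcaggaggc
Within these 6 stretches there was 1 match, in Ndufa6, which starts 83 bases before the start of the gene and is the core of the site of NRF1, a regulator of respiratory genes. The whole window of Ndufs8 held the ETS core named below, outside the stretch shown. Over whole windows and both strands, the NRF1 core GCATGCGC was found in 10 of 70 members (14.3%) and in 3.05% of all 27025 genes with a window. The ETS core CCGGAAG, which the GABP factors recognize, was found in 16 members (22.9%) against 9.93% of genes. The YY1 core AAGATGGC was found in 11 members (15.7%) against 3.19%, and the short site AAGGTCA of the ERR receptors in 8 members (11.4%) against 5.38%. None of these motifs contains another. The median Torin1 ratio was -0.67 for 10 measured members with the NRF1 core and -0.51 for 58 without it, and -0.64 for 8 with the ERR short site and -0.54 for 60 without it. For the ETS core the medians were -0.58 and -0.55, and for the YY1 core -0.79 and -0.51. A match to these letters is a description and does not show binding.

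Alternative isoforms replace a common subunit of complex IV in certain tissues, and 4 of the 7 on the array were measurable here. The heart-type Cox6a2 and Cox7a1 were described above. Their common counterparts Cox6a1 and Cox7a2 had Torin1 ratios of -0.57 and -0.26. The levels of Cox6a1 were 8.72 on M2, 9.05 without Lamtor1, 8.15 with Torin1 and 9.49 on M1. Cox4i2, the form of subunit IV known for its induction in low oxygen, had levels of -0.98 on M2, -0.73 without Lamtor1, -0.40 with Torin1 and 0.30 on M1. Its counterpart Cox4i1 had 7.93, 8.30, 8.04 and 7.69, so that in M1 the alternative form was higher (ratio 1.29) while the common form was at -0.24.
Cox6b2, the testis form of subunit VIb, had levels of -1.35, -1.22, -1.40 and -0.32 in the order M2, Lamtor1-deficient, Torin1 and M1, with a ratio of 1.03 in M1. Its counterpart Cox6b1 was at 0.27 in M1 and -0.45 with Torin1. Ndufa4l2, which resembles Ndufa4 and is known for its induction in low oxygen, had levels of -2.64, -2.19, -4.04 and -1.30. Its ratios were -1.40 with Torin1, from a low signal of 28.5, and 1.34 in M1. Ndufa4, named for complex I and later placed in complex IV, had -0.88 and -1.18. The M1 ratios of the alternative forms depended on the scaling, and with the arrays centred on their medians they were 0.47 for Cox4i2, 0.21 for Cox6b2, 0.21 for Cox7a1 and 0.52 for Ndufa4l2. After Lamtor1 loss none of these alternative forms was past 1.5-fold, whereas the common form Cox7a2 was (0.76).

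**Figure D4:**
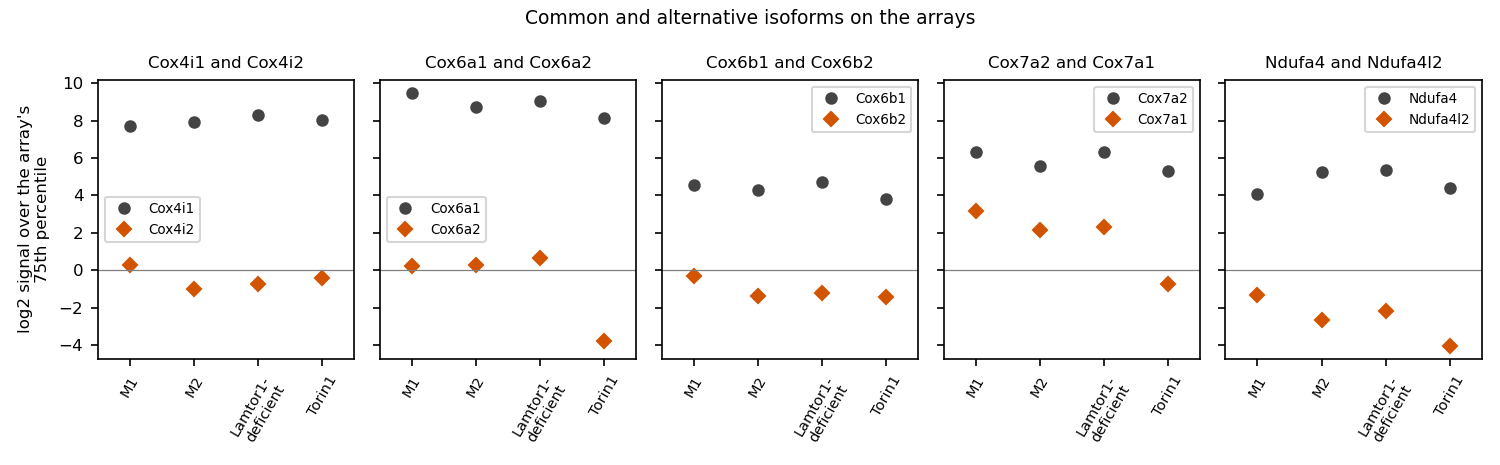
Level (log2 of the signal over the array's 75th percentile) of common isoforms (circles) and their alternative forms (diamonds) on the 4 arrays, 1 value per array and no error bars, since each condition had 1 array. Heights of different probes are not comparable, so only the positions of one gene across arrays are to be read. Cox6a2 (-3.79) and Cox7a1 (-0.73) are lowest on the Torin1 array.

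At this scaling, M1 cells differed from M2 cells in both directions, depending on the subunit. Of 82 members, 48 were lower and 34 higher, against 47.9% of named genes well above background being lower at any size. At 2-fold, 16 members were lower and 5 higher, against 25.3% and 25% of named genes well above background. The medians by complex were -0.54 in complex II, -0.38 in complex V, -0.22 in complex I, -0.01 in complex III and 0.27 in complex IV. The M1 values depend on the scaling more than the others do. The median of all named genes stood at 0.74 in M1, and centring each array on its median lowers every M1 ratio by 0.82 and leaves 7 of 82 members higher. Over all 85 members, the count of those 2-fold lower is then 41 and of those 2-fold higher 0.

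Subunits of the same complex differed widely in M1. In the ATP synthase, the alpha subunit Atp5a1 had levels of 6.84 on M2, 7.03 without Lamtor1, 6.07 with Torin1 and 5.05 on M1 (M1 ratio -1.79). The catalytic beta subunit Atp5b had 8.05, 8.31, 7.54 and 6.83 (-1.22), and the gamma subunit Atp5c1, the rotor shaft, had 6.77, 6.93, 6.11 and 5.23 (-1.55). By these probes all 3 were lowest on the M1 array, whereas the second probe of Atp5c1 read -0.58 in M1 and -0.95 with Torin1. The other 2 head subunits, delta (Atp5d, 0.14) and epsilon (Atp5e, 0.00), were near the M2 level, so the median of -1.22 over the 5 head subunits does not describe them all.
Among genes of the c ring, Atp5g1 was at -1.76, Atp5g3 at -1.23 and Atp5g2 at 0.47, where the second probe of Atp5g2 read -0.80, opposite in sign. The remaining 7 ATP synthase subunits had a median of -0.08, ranging from -0.74 for Atp5o, the stalk subunit, to 0.42 for Atp5k. Atp5sl was at -1.34. These groups within a complex were formed after the values had been seen and carry no test.

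In complex I, 6 of 7 core subunits were lower in M1, against 47.9% of named genes well above background. Their median was -0.65, against -0.18 for the 31 other genes counted in complex I. This split was also made after the values had been seen. Ndufs1, the largest iron-sulphur subunit, had levels of 5.30 on M2, 5.60 without Lamtor1, 4.70 with Torin1 and 3.87 on M1 (M1 ratio -1.43). Ndufv1 had 6.03, 6.39, 6.18 and 4.61 (-1.42). The 31 others included the lowest and the highest of the genes counted in complex I by name. These were Ndufab1 at -1.63 and Ndufa4l2, the relative of Ndufa4, at 1.34, and Ndufa10 was at -1.43. In complex III, Uqcrc1 (-1.27), Uqcrfs1 (-0.91) and Uqcrc2 (-0.24) had a median of -0.91, while the 5 other subunits had a median of 0.29, from -1.11 for Uqcr11 to 1.02 for Uqcrq. Within complex IV, Cox5b was the lowest (-1.02), and Cox4i2, Cox7a1 (1.03) and Cox6b2 were more than 2-fold higher at this scaling.

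The subunits encoded by the mitochondrial genome had medians apart from those of the nuclear ones with Torin1 and in M1. The array carried 12 of them, and all were well above background on every array. After Lamtor1 loss their median log2 ratio was 0.27 with 12 of 12 higher (57.3% of named genes well above background), next to 0.29 for the nuclear members. With Torin1 it was 0.29, next to -0.63, with 3 of 12 lower (49.2% of named genes well above background) and 0 past 2-fold in either direction. In M1 it was -5.15 with 12 of 12 lower and 10 of them past 2-fold (25.3% of named genes well above background), next to -0.18.
CYTB, the cytochrome b of complex III, had levels of 7.41 on M2, 7.78 without Lamtor1, 8.03 with Torin1 and 1.45 on M1. ND3, a membrane subunit of complex I, had 5.42, 6.45, 4.93 and -3.17, and ND4L had 4.93, 5.30, 5.25 and -2.04. COX1, the catalytic subunit of complex IV, had 9.13, 9.36, 8.74 and 8.22, a ratio of only -0.90 in M1, and ND6, the 1 gene here that lies on the light strand, was at -0.51. The array annotation places 5 of these 12 probes on chromosome 1 of mm9, where a nuclear copy of the mitochondrial sequence lies, and 7 on the mitochondrial genome, so a signal of the copy cannot be told apart for the 5.

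**Figure D5:**
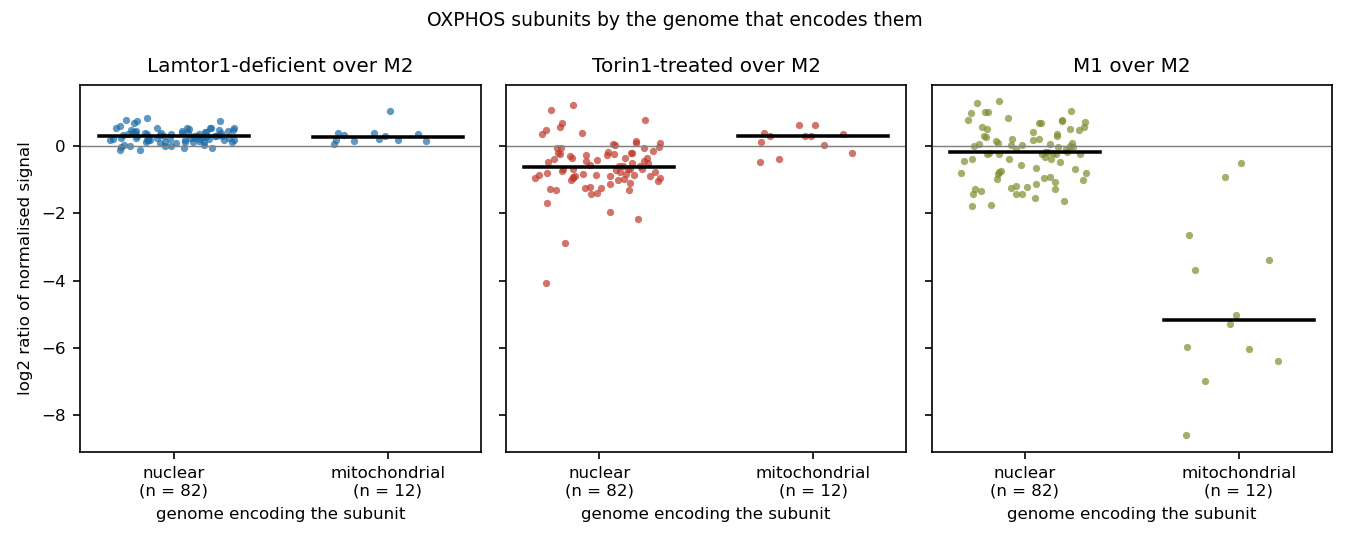
Log2 ratio over the wild-type M2 array for subunits encoded in the nucleus (82 members) and in the mitochondrial genome (12 genes), with 1 panel per comparison, 1 point per gene and black bars at the medians. The medians are 0.29 and 0.27 after Lamtor1 loss, -0.63 and 0.29 with Torin1, and -0.18 and -5.15 in M1.

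Proteins that work with the complexes were read from lists of related genes. The list of 9 carriers and partners held 3 genes that are themselves nuclear-encoded subunits but whose symbols do not begin as those of the members do, namely cytochrome c1 of complex III (Cyc1, Torin1 ratio -1.06) and the small ATP synthase subunits Usmg5 (-0.83) and 2010107E04Rik (-0.51). All 9 were lower with Torin1 and 4 of them past 2-fold, next to 49.2% and 13.2% of named genes well above background. Cycs, the cytochrome c that carries electrons from complex III to complex IV, had levels of 5.74 on M2, 6.08 without Lamtor1, 3.69 with Torin1 and 8.22 on M1, thus low in Torin1 (-2.05) and high in M1 (2.48). Slc25a5, an exchanger of ADP and ATP, was at -2.50 with Torin1, and its relative Slc25a4 at -3.63 in M1. Ucp2, a carrier of the uncoupling protein family, was at -2.88 with Torin1 and at -1.15 after Lamtor1 loss.

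The assembly factors, which build the complexes without staying in them, had medians of 0.24 after Lamtor1 loss, -0.18 with Torin1 and -0.26 in M1 over 29 genes. With Torin1, 3 of these 29 were more than 2-fold lower (Sdhaf2 at -1.20, Tmem126b at -1.19 and Cox10 at -1.16) and 0 were more than 2-fold higher, so the share lower was close to the 13.2% of named genes well above background. Lrpprc, which stabilizes mitochondrial mRNAs, was at -4.67 in M1. Mitochondrial ribosomal proteins, which translate the mitochondrially encoded subunits, had medians of 0.22, -0.40 and -0.41 over 75 genes, and 61 of 75 were lower with Torin1, next to 49.2% of named genes well above background. The lowest M1 ratios of this list were those of Mrps28 (-4.64 in M1 and -1.74 with Torin1) and Mrps6 (-4.11 and -1.17).
Regulators of mitochondrial biogenesis had medians of 0.01, 0.33 and -0.97 over 16 genes. Ppargc1a was not well above background on any array, Esrra was at -0.44 and Nrf1 at 0.36 with Torin1. Tfb1m and Tfb2m, which act in the mitochondrial ribosome and in mitochondrial transcription, were at -4.42 and -3.77 in M1, and Ssbp1, the mitochondrial single-stranded DNA-binding protein, was at 1.06 after Lamtor1 loss. Import proteins had medians of 0.26 and -0.04 over 21 genes and -1.20 over 20 genes in M1, with 11 of these 20 more than 2-fold lower, next to 25.3% of named genes well above background. Enzymes of coenzyme Q synthesis had 0.29 and -0.09 over 9 genes and -1.62 over 7 genes in M1. Common reference genes had 0.07, -0.21 and -0.40 over 9 genes, and 1 of them is the member Sdha.

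Different probes of a gene did not always give the same ratio. For the 25 members with several probes, the median range of the log2 ratio between probes was 0.08 for Lamtor1 loss, 0.18 for Torin1 and 0.20 for M1. The signs differed for 1, 0 and 5 genes, and in 1 case, Atp5g2 in M1, both probes were beyond 2 technical SD. The widest range was that of Ndufb5 in M1, where the probes read -0.79 and -2.79.

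Markers of other cells differed between the arrays as well. The 7 neutrophil markers had a summed signal of 90.7 times the 75th percentile on M2, 6.32 without Lamtor1, 6.09 with Torin1 and 4.46 on M1, with Ltf, Ngp and Retnlg not well above background on M1 and Retnlg not without Lamtor1. The 8 fibroblast markers summed to 43.7 on M2, 57.0 without Lamtor1, 15.7 with Torin1 and 16.4 on M1. Lum was not well above background on the last 3 arrays and Pdgfra not on M1. The median log2 ratios of the fibroblast markers measured were 0.59 after Lamtor1 loss and -0.61 with Torin1 over 7 genes. In M1 the median was -1.42 over 6 genes, of which 4 were lower and 2 higher. The 8 lymphocyte markers summed to 3.31, 3.05, 2.08 and 4.23, with Ms4a1 not well above background anywhere and Cd3d, Cd3g and Ncr1 only without Lamtor1. Their part in the differences of the OXPHOS subunits was not tested.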

How the data were processed

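RNA from 4 BMDM cultures was labelled with Cy3 and hybridized to Agilent 1-colour mouse arrays. The authors deposited scanner files with the processed signal, an intensity per spot after background subtraction and detrending, not normalized between arrays. The file headers name Agilent Feature Extraction 10.7.3.1 and the labels 10.5.1.1. A further deposited table repeats these intensities for all arrays (within 0.497%) and had 0 columns that could not be assigned to a sample. Here, control spots and spots marked as outliers were left out (170 to 226 per array), signals below 1 were set to 1, spots of a probe were averaged on the log2 scale, and each array was shifted to its 75th percentile over 55681 probes, as in the study's methods. A probe was well above background where 0.5 or more of its spots carried that mark, which held for 28340 to 30858 probes per array. The lowest such signal was 15.7 to 21.6. The technical SD came from 399 probes spotted 8 or more times. The number of arrays limits the precision, and no test was possible.

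Named in the text were, per complex, the highest and lowest member of each comparison, members past 2-fold, alternative isoforms with their partners, complex II, and up to 4 pathway genes per list past 2-fold. Esrra, Nrf1, Ppargc1a and others serve as examples chosen with their values known. Some genes that this rule covers are not reported here. Members and lists were chosen with earlier results of these data known, and the groups of core subunits and of bright genes were added after seeing the values. Alternatives were a shift to the median, quantile normalization, the 75th percentile over detected probes, normexp with an offset of 50, outlier spots kept, the series table, the mean over probes, detected members only, a 1.5-fold threshold, and leaving out alternative isoforms, Atp5s and Atp5sl. Probe positions follow the annotation of the array (mm9), and all 85 symbols matched RefSeq genes by symbol or synonym. The procedure was tested on simulated data. Python 3.11.15, NumPy 2.4.6, pandas 2.3.3, matplotlib 3.10.9, R 4.3.3 and limma 3.58.1 were used.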

Additional observations from a re-analysis of the deposited data

How the results depend on the processing

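No paired analysis was possible because each condition has 1 array. Over all 85 members, the median log2 ratio of 0.29 after Lamtor1 loss was 0.11 with quantile normalization. The count of members past the threshold upward, 0 at 2-fold, was 6 at 1.5-fold. For Torin1 the median of -0.59 was -0.84 with a shift of each array to its median. The count lower, 18, was 34 with that shift, 44 at 1.5-fold and 15 to 20 under the other alternatives, and the count higher, 2, was 0 with that shift, 1 with quantile normalization and 4 at 1.5-fold. In M1 the median of -0.17 was -0.99 with the shift to the median and -0.32 with quantile normalization. The count lower, 16, was 41 with that shift, 26 at 1.5-fold and 15 to 21 under the other alternatives. The count higher, which was 6 including Cox8b below background, was 0 with the shift, 3 with quantile normalization, 16 at 1.5-fold and 1 without the alternative isoforms, Atp5s and Atp5sl. All these medians kept their sign. Measured against named genes well above background, the members' median with Torin1 was lower by 0.65 in the setting reported and stayed between -0.63 and -0.66 over the other scalings and corrections. After Lamtor1 loss this difference was 0.21 in the setting reported and 0.10 with quantile normalization, and in M1 it was -0.26 and -0.43 with normexp. The cause of these shifts was not tested. With 1 array per condition, a difference between conditions cannot be separated from one between cultures, and the spread between spots understates the error of every value.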
